A study of Mus musculus with 12 samples.

Results

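The genes described here were the numbered mouse Zfp genes, that is, protein-coding genes on chromosomes 1 to 19 whose symbol is Zfp followed by digits only, leaving out Zfp42 and Zfp57. A gene was taken when both its promoter and its exons had a DNA methylation level in all 12 libraries, whatever that level was. This held for 201 of the 358 Zfp genes that the annotation places on these chromosomes, and 155 lacked a promoter or an exon level in at least 1 library. They were set beside the 11560 autosomal protein-coding genes, themselves included, that met the same condition, out of 14414 genes of any kind. The levels come from reduced representation bisulfite sequencing (RRBS), in which genomic DNA is cut by MspI at CCGG and bisulfite converts unmethylated cytosines, so that a level is the share of CG calls read as methylated.

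The libraries formed 6 groups of 2, all from C57BL6 mice. Female embryonic stem cells (ESCs) came from fertilized embryos, and parthenogenetic ESCs (pESCs) came from activated oocytes and hold no paternal genome. Both kinds of line carried a β-Actin-GFP transgene according to the study. Primordial germ cells (PGCs), the precursors of oocytes and sperm, were isolated at embryonic day 9.5 (E9.5 PGC) and at embryonic day 12.5 (E12.5 PGC). PGC-like cells (PGCLCs) were induced from ESCs (ESC-PGCLC) or pESCs (pESC-PGCLC), first with bFGF and Activin A and then with BMP4, SCF, EGF and LIF. A cell line is a single derivation, and the labels do not say whether libraries 1 and 2 of a group came from separate cultures or embryos, so p-values measure only the spread between libraries, which may be technical. The levels carry no expression, so that the labelled cell types could not be checked against marker genes.

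Most Zfp genes encode proteins with tandem C2H2 zinc fingers, each finger a short loop folded around a zinc ion that reads a few bases of DNA. Many also carry an amino-terminal KRAB domain, which recruits Trim28 and the histone methyltransferase Setdb1 and so silences retroelements and other sequences. Other members are activators, regulators of development or RNA-binding proteins. In early germ cells DNA methylation is erased across most of the genome, and gene promoters rich in CG are generally unmethylated whereas gene bodies are methylated in many cell types.

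The name of the family was checked against the protein sequences translated from the annotation. A C2H2 finger was found in 195 of the 201, with a median of 10 fingers and at most 36. The 6 without a match to the finger pattern were Zfp36, whose fingers are of the CCCH type and bind mRNA, and Zfp330, Zfp503, Zfp703, Zfp839 and Zfp935. A missing match does not show that a finger is absent, and the Zfp935 sequence read had only 150 residues. A KRAB domain was found in 98 members and not found in 103. The members lay on 18 chromosomes, with 54 on chromosome 7 and 21 on chromosome 17, and 87 had another member within 200 kb.

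Promoter sequence in this family ranged from CG-rich to nearly CG-free, and the 6 stretches below show this for members on which the results turn. Each is the 250 bases before the RefSeq transcription start in GRCm38.p6, written 5′ to 3′ on the gene's strand, with every CG in capitals. Zfp827 (chr8:79028187-79028436, plus strand, 23 CG) had a highly methylated promoter in germ cells. Zfp27 (chr7:29906533-29906782, minus strand, 1 CG) and Zfp345 (chr2:150485064-150485313, minus strand, 3 CG) had the promoters that gained most and that rose from near 0 on PGCLC induction. Zfp648 (chr1:154200937-154201186, plus strand, 4 CG) had a promoter that was methylated in every group. Zfp691 (chr4:119174196-119174445, minus strand, 13 CG) and Zfp775 (chr6:48601757-48602006, plus strand, 18 CG) had nearly unmethylated promoters and highly methylated exons.
Zfp827: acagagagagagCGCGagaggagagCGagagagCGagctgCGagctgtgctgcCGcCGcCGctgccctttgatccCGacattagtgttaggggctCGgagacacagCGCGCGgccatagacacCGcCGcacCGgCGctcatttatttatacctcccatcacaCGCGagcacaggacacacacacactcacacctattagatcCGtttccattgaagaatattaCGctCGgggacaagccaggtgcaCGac
Zfp27: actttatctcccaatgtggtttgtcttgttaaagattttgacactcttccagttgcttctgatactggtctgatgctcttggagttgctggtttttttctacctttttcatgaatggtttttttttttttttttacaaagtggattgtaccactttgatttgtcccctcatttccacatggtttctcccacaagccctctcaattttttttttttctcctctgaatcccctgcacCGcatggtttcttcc
Zfp345: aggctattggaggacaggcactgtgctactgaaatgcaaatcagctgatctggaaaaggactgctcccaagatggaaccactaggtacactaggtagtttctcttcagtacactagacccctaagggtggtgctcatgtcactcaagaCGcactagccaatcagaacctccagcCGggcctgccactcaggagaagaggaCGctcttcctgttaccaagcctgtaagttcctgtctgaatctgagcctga
Zfp648: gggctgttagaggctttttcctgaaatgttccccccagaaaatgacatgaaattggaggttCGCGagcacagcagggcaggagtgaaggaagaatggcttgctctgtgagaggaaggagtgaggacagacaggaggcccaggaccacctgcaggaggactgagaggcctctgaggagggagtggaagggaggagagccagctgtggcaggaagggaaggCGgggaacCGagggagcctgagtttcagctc
Zfp691: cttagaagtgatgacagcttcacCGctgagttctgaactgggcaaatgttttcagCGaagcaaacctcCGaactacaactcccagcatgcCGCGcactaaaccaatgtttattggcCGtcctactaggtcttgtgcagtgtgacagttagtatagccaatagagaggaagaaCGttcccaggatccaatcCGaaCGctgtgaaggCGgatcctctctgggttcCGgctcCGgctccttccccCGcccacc
Zfp775: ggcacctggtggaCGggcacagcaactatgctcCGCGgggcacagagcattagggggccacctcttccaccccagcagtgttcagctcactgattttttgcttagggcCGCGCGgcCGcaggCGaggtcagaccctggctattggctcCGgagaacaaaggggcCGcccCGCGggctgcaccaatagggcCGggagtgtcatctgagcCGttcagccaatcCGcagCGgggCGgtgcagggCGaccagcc
The authors' promoter window was not stated, so these bases need not be the ones measured. MspI cuts at CCGG, which is its own reverse complement. In the 300 bases from 250 before to 50 after the annotated start, CCGG occurred in 177 of the 201 members (88.1%) and in 82.5% of the 11560 genes. Neither Zfp27 nor Zfp648 has CCGG in the 250 bases printed, so the CG behind their promoter levels lay at least partly elsewhere in the authors' window or fragments.

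The number of reads behind each level is unknown, so no interval or limit from depth was computed. The files listed 144375 to 166476 features per library. Over the features common to all libraries, the median level was 13.2% and 11.2% in the ESC libraries, 13.1% and 13.3% in pESC, 35.1% and 34.0% in E9.5 PGC, 19.2% and 19.8% in E12.5 PGC, 25.4% and 24% in ESC-PGCLC and 23.3% and 22.7% in pESC-PGCLC. The ESC libraries stood further apart than those of other groups. They differed by over 20 percentage points at 7 Zfp promoters and 8 Zfp exons, with library 1 higher at all of them, whereas no promoter in any other group and at most 3 exons in a group differed by as much. In both ESC and pESC library 2 was above library 1 at most Zfp promoters, 146 and 148 of the 201.

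Across the family, promoters were nearly unmethylated in every group, and the exon levels carried the differences between groups. The median promoter level over the 201 members was 1.89% and 2.59% in the ESC libraries, 2.67% and 2.87% in E9.5 PGC and 2.65% and 2.70% in E12.5 PGC. It was 1.81% and 2.5% in pESC, 2.64% and 2.74% in ESC-PGCLC and 2.76% in both pESC-PGCLC libraries. The promoter medians of all 12 libraries thus lay between 1.81% and 2.87%. The median exon level was 4.13% and 5.02% in ESC, 4.86% and 4.72% in pESC, 13.9% and 10.04% in E9.5 PGC and 7.84% and 8.38% in E12.5 PGC. It was 9.17% and 7.73% in ESC-PGCLC and 8.25% and 8.11% in pESC-PGCLC. The germ cells and the PGCLCs were above both kinds of stem cell in every library. E9.5 PGC was highest, and the ranges of E12.5 PGC, ESC-PGCLC and pESC-PGCLC overlapped. In the 11560 genes the library medians ran from 2.21% to 3.35% for promoters and from 6.92% to 16.9% for exons. There too promoters were low, exons in germ cells and PGCLCs were above stem cells and E9.5 PGC was highest. This layout is thus not particular to the family. In every library both Zfp medians were below those of the 11560 genes.

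**Figure D1:**
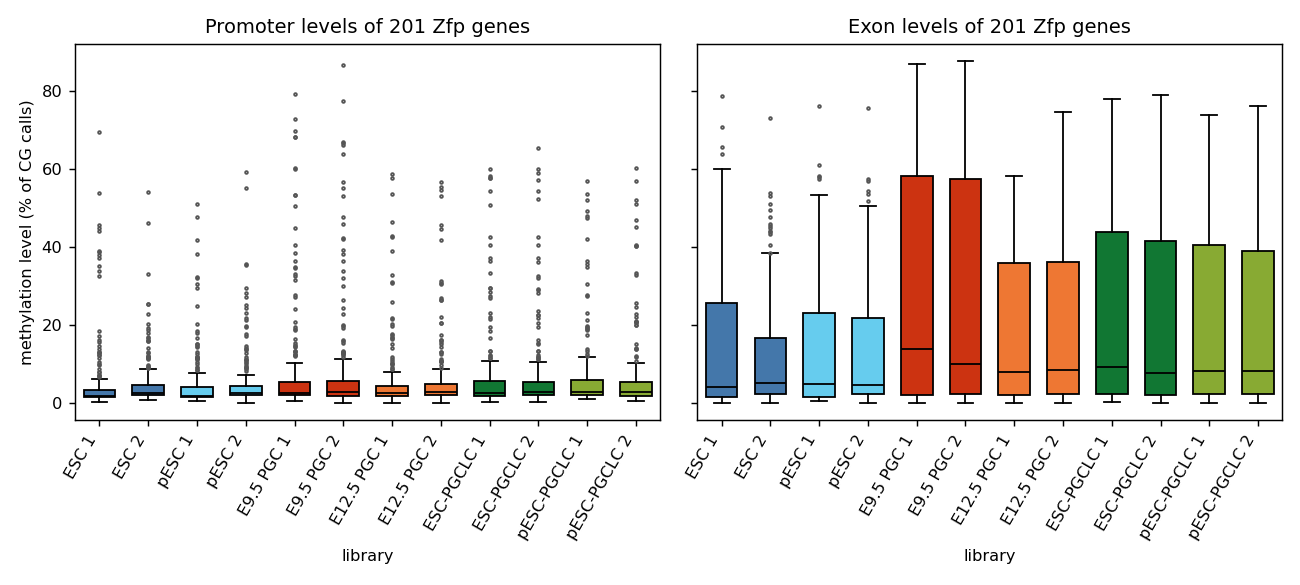
Methylation level in percent of the promoters and of the exons of the 201 Zfp genes in each of the 12 libraries, with boxes from the lower to the upper quartile, a line at the median, whiskers to 1.5 times the interquartile range and dots beyond. Promoter medians stay between 1.81% and 2.87%, while exon medians run from 4.13% in an ESC library to 13.9% in an E9.5 PGC library.

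The mean over members, which the few highly methylated genes pull up, showed the order of the groups more widely. The mean exon level was 28.5% ± 0.585 (SD over libraries, n = 2) in E9.5 PGC, 21.6% ± 0.630 in ESC-PGCLC, 20.1% ± 0.038 in pESC-PGCLC, 18.3% ± 0.468 in E12.5 PGC, 13.7% ± 0.421 in pESC and 13.2% ± 1.95 in ESC. The stem cell groups did not differ beyond their spread, and every other step in this order was larger than the SD of either neighbour. The mean promoter level ran in the same order, apart from the stem cell groups, from 8.73% ± 0.050 in E9.5 PGC over 6.23% ± 0.255 in E12.5 PGC to 5.25% ± 0.294 in ESC. In the 11560 genes the mean promoter level was higher, at 15.3% in E9.5 PGC and 8.62% in ESC. Their mean exon level was similar in E9.5 PGC, at 28.2%, and higher in ESC and pESC, at 15.7% and 16.4%.

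In E9.5 PGC, 163 of the 201 promoters (81.1%) were below 10% methylated and 9 (4.48%) were at 50% or more. Among the 11560 genes these shares were 68.5% and 12.5%. The exons split more evenly, with 99 (49.3%) below 10% and 63 (31.3%) at 50% or more, against 45.3% and 27.8% of the 11560 genes. Exons at 50% or more numbered 6 in ESC, 7 in pESC, 13 in E12.5 PGC, 36 in ESC-PGCLC and 25 in pESC-PGCLC. Promoters that high numbered 2, 2, 9, 4 and 6 in ESC, pESC, E9.5 PGC, E12.5 PGC and ESC-PGCLC, and 3 in pESC-PGCLC.

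Promoter and exon levels were combined in all 4 ways, but unevenly. In E9.5 PGC both were below 10% in 91 members. A promoter below 10% stood beside exons of 50% or more in 44. The opposite state, a promoter of 50% or more beside exons below 10%, was seen in 2 members, Zfp575 and Zfp9, and both levels were at 50% or more in 4, Zfp14, Zfp286, Zfp827 and Zfp956. In E12.5 PGC the first state held for 102 members and the second for 11, namely Zfp11, Zfp12, Zfp202, Zfp423, Zfp516, Zfp574, Zfp592, Zfp609, Zfp647, Zfp691 and Zfp74. By then no member was in the opposite state, and Zfp827 was the 1 member with both levels at 50% or more. These members are named because they fill the states, which were set after their values were seen.

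**Figure D2:**
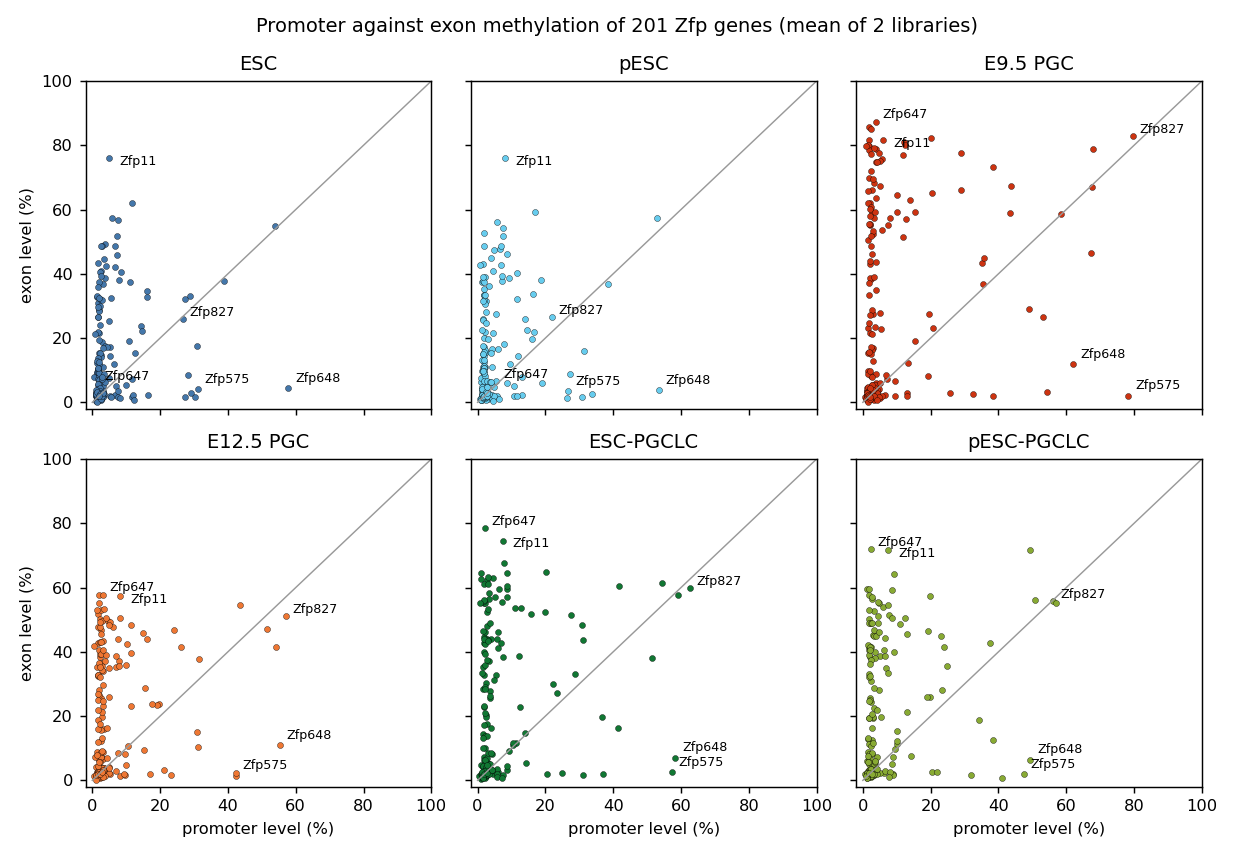
Mean exon level against mean promoter level, both in percent, of the 201 Zfp genes in each of the 6 groups (1 dot per gene, n = 2 libraries, diagonal where both are equal). Most genes lie along the left edge with promoters below 10%, and in E9.5 PGC 44 of them reach exon levels of 50% or more, while Zfp575 and Zfp648 lie below the diagonal.

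The distance between exons and promoter was then tested gene by gene within each group, with limma on the log odds of the levels over all 14414 genes. Here and below a difference was called at an adjusted p under 0.05 with group means at least 10 percentage points apart. Exons were called above the promoter in 59 members in ESC (27.2% of all genes tested), 63 in pESC (28.3%), 87 in E9.5 PGC (35.0%), 81 in E12.5 PGC (28.9%), 83 in ESC-PGCLC (31.0%) and 78 in pESC-PGCLC (30.5%). As a share of the members this was 29.4% in ESC, 43.3% in E9.5 PGC, 40.3% in E12.5 PGC and 41.3% in ESC-PGCLC, against 30.2%, 39.1%, 32.6% and 34.8% of the 11560 autosomal protein-coding genes. The promoter was called above the exons in 9 members in ESC (7.32% of all genes), 9 in pESC (7.46%), 11 in E9.5 PGC (9.88%), 8 in E12.5 PGC (7.4%), 8 in ESC-PGCLC (8.26%) and 8 in pESC-PGCLC (7.75%). The median over members of the mean distance in E9.5 PGC was 3.07 points, beside 2.11 in the 11560 genes, and the library medians were 5.79 and 2.57 points, so that the libraries differed by more than these sets of genes did.

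The largest distances in E9.5 PGC were those of Zfp691, Zfp647, Zfp775, Zfp516 and Zfp592. In Zfp691 the exons were at 85.8% and 85.5% in the E9.5 PGC libraries and the promoter at 1.48% and 2.07%, a distance of 83.8 points (7.66 ± 0.30 log2 odds, SE; limma adjusted p = 1.04e-07). In Zfp647 the distance was 83.5 points, in Zfp775 it was 82.7, in Zfp516, a regulator of brown fat, 80.0, and in Zfp592 78.7. The promoters of the first 4 of these stayed low in all 12 libraries, Zfp691 between 0.891% and 2.76%, Zfp647 between 1.16% and 7.63%, Zfp775 between 1.79% and 3.56% and Zfp516 between 1.35% and 2.22%. Their exons varied far more, in Zfp691 between 25.9% and 85.8% and in Zfp647 between 3.68% and 87.7%.

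The most negative distances were those of Zfp575, Zfp9, Zfp648, Zfp638 and Zfp382. The Zfp575 promoter was at 79.1% and 77.4% in E9.5 PGC and its exons at 2.02% and 2.15%, so that the promoter exceeded the exons by 76.2 points (-6.80 ± 0.41 log2 odds, SE; limma adjusted p = 1.06e-06). The Zfp648 promoter was at 69.6% and 46.1% in ESC, 47.7% and 59.3% in pESC, 60.3% and 63.9% in E9.5 PGC, 57.6% and 53% in E12.5 PGC, 57.7% and 58.9% in ESC-PGCLC and 53.5% and 45.2% in pESC-PGCLC. Its exons ranged between 3.02% and 12.5%. Its promoter was thus far above its exons in every library, and its 250 bases before the start hold 4 CG.

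The first comparison between groups asked what changed between E9.5 PGC and E12.5 PGC. Levels fell at 83 of the 201 exons and 20 of the 201 promoters, and no member rose. The background was 47.6% of all exons and 32.2% of all promoters tested, and the members' shares were 41.3% and 9.95%. A level below 10% in E9.5 PGC could not fall by the 10-point minimum. This held for 81.1% of the members' promoters and 49.3% of their exons, beside 68.5% and 45.3% in the 11560 genes. The shares called thus depend on the starting levels and do not compare how readily levels fell. Among the autosomal protein-coding genes 43.1% of exons and 20.7% of promoters fell. The median difference over members was -4.68 points for exons and -0.244 for promoters, beside -6.55 and -0.606 in the 11560 genes. The whole set of measured features fell by a median of 11.5 points, and when the library medians were subtracted first, 75 exons rose and 23 fell, and 138 promoters rose and 2 fell. The calls below are therefore absolute changes in level and not changes relative to the genome.

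Exons fell most in Zfp532, Zfp775 and Zfp710. Zfp532 exons were at 82.9% and 81.6% in E9.5 PGC and 38.2% and 46.6% in E12.5 PGC, and fell by 39.9 points (-2.59 ± 0.18 log2 odds, SE; limma adjusted p = 8.98e-05). Zfp775 exons went from 85.4% and 84.7% to 48.2% and 50.7% (-2.46 ± 0.14 log2 odds, limma adjusted p = 7.48e-05) and Zfp710 exons from 75.4% and 74.5% to 39.8% and 41.4%. These 3 were picked as the largest called falls, so that their groups do not overlap follows from that choice. The exons that remained highest at E12.5 were those of Zfp647, at 55.9% and 59.8% after 87.1% and 87.7%, and of Zfp516, Zfp11, Zfp691 and Zfp14, which were at 57.7% ± 0.750, 57.3% ± 2.68, 55.1% ± 0.535 and 54.6% ± 3.14 (SD, n = 2). The lowest were those of Zfp866, Zfp326, Zfp410, Zfp944 and Zfp821, at a mean of 1.05% or less.

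Promoters fell most in Zfp575, Zfp248 and Zfp286. Zfp575 went from 79.1% and 77.4% to 42.9% and 41.9%, a fall of 35.9 points (-2.24 ± 0.10 log2 odds, SE; limma adjusted p = 7.47e-05). Zfp248 went from 40.6% and 46% to 15.1% and 15.7% and Zfp286 from 60.1% and 56.7% to 32.7% and 30.4%. The highest promoters at E12.5 were those of Zfp827, Zfp648, Zfp27, Zfp956 and Zfp14. The CG-rich promoter of Zfp827, a gene linked to telomere chromatin, was at 72.7% and 86.6% and then 58.9% and 55.4%, and fell by 22.5 points (limma adjusted p = 0.0151), a call lost without E12.5 PGC library 1 (0.0509) or 2 (0.0721). The Zfp648 promoter passed no threshold here, with a difference of -6.79 points (limma adjusted p = 0.128). The lowest promoters at E12.5, those of Zfp628, Zfp281, Zfp316, Zfp560 and Zfp91, were at a mean of 1.08% or less.

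The distance between exons and promoter narrowed from E9.5 to E12.5 in 28 members (13.9%) and widened in none, beside 12.8% of the autosomal protein-coding genes and 11.3% of all genes tested. In Zfp775 it fell by 35.7 points (limma adjusted p = 0.00599) and in Zfp710 by 33.8 (adjusted p = 0.0182). Zfp521, a regulator of progenitor cells, had the largest difference, -36.8 points, and did not pass (adjusted p = 0.099). The count depended on the setting and on each library, since it was 64 with an offset of 0.1 in the log odds and 70 on untransformed levels, and 3 to 8 when any of the 4 PGC libraries was left out, and Zfp710 then passed in none of the 4 repeats (adjusted p = 0.0737 to 0.0982).

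**Figure D3:**
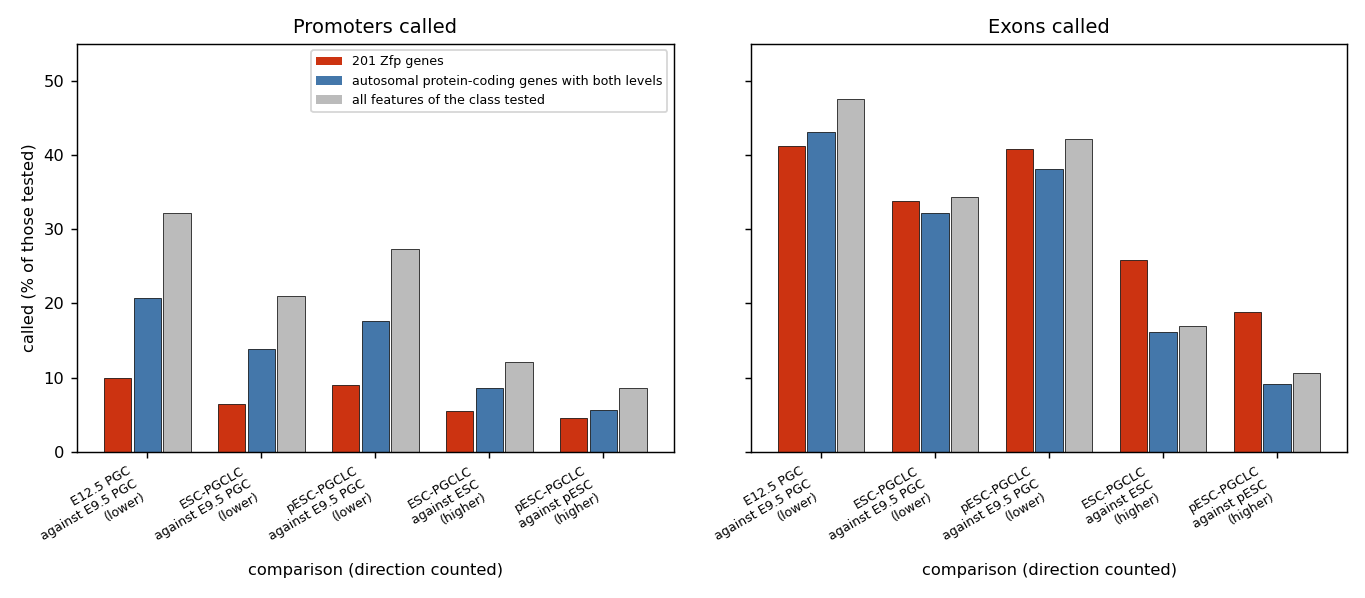
Percent of promoters and of exons called in 5 comparisons, in the direction given under each, for the Zfp genes (red), for the 11560 autosomal protein-coding genes with both levels (blue) and for all features of the class tested (grey). The red promoter bar is the lowest of each set (9.95% beside 20.7% and 32.2% in E12.5 PGC against E9.5 PGC), while red exon bars are near the others for falls and the highest for rises (25.9% beside 16.2% and 16.9% from ESC). Features below 10% in E9.5 PGC could not be called lower than in E9.5 PGC, so the bars for falls depend on starting levels.

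The second comparison set the PGCLCs against E9.5 PGC. All 4 counts below use the same E9.5 PGC libraries as the comparison above. In ESC-PGCLC 68 exons (33.8%; 34.4% of all exons tested) and 13 promoters (6.47%; 21.0% of all promoters tested) were lower than in E9.5 PGC. In pESC-PGCLC 82 exons (40.8%; 42.2% of all exons) and 18 promoters (8.96%; 27.3% of all promoters) were lower. No member was higher than in E9.5 PGC in either. The autosomal protein-coding genes gave 32.2% of exons and 13.9% of promoters in ESC-PGCLC, and 38.1% and 17.6% in pESC-PGCLC. The whole set of features was lower by a median of 4.99 and 7.48 points, and with libraries centred on their medians the exons split into 38 higher and 14 lower in ESC-PGCLC and 63 and 28 in pESC-PGCLC, and the promoters into 69 and 1, and 113 and 1. Without ESC-PGCLC library 1 the 13 promoters were 7.

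The exons of Zfp775 and Zfp532 lay furthest below E9.5 PGC in both kinds of PGCLC. Zfp775 exons were at 59.3% and 53.2% in ESC-PGCLC and 48.2% and 49.8% in pESC-PGCLC, lower than in E9.5 PGC by 28.8 and 36 points (limma adjusted p = 0.000744 and 0.000258). Zfp532 exons were at 52.8% and 54.3% and 52.1% and 48.7%. Next came Zfp213 in ESC-PGCLC, lower by 24.4 points, and Zfp521 in pESC-PGCLC, lower by 28.5. Among promoters Zfp575 was the furthest below E9.5 PGC, at 57.6% and 57.1% in ESC-PGCLC and 48.1% and 46.9% in pESC-PGCLC, or 20.9 and 30.8 points lower (adjusted p = 0.00076 and 0.000258). It was followed by Zfp9 and Zfp827 in ESC-PGCLC (17.4 and 17 points lower) and by Zfp827 and Zfp286 in pESC-PGCLC (23.5 and 20.8). The Zfp827 calls were weak, since leaving out 1 library ended the first in 7 of 8 repeats, with E9.5 PGC library 1 the exception (adjusted p = 0.0685 to 0.176), and the second without pESC-PGCLC library 1 (0.0844).

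The third comparison followed the induction of PGCLCs from their stem cells, where most called changes of this family were gains in exon methylation. From ESC to ESC-PGCLC, 52 exons rose (25.9%; 16.9% of all exons tested) and 2 fell, and 11 promoters rose (5.47%; 12.1% of all promoters tested) and 1 fell. From pESC to pESC-PGCLC, 38 exons rose (18.9%; 10.6% of all exons) and 2 fell, and 9 promoters rose (4.48%; 8.55% of all promoters) and none fell. The autosomal protein-coding genes rose at 16.2% and 9.19% of exons and 8.65% and 5.61% of promoters. Exons fell at 1.19% and 1.22% of these genes, beside 0.995% of the members from each origin. The median exon difference over members was 1.98 and 1.53 points, beside 1.46 and 0.656 in the 11560 genes. With libraries centred on their medians more falls than rises were called, namely 19 exons higher and 68 lower from ESC and 18 and 40 from pESC, with 3 promoters higher and 126 lower, and 3 and 55. Without pESC-PGCLC library 2, 23 exons and 5 promoters were called from pESC.

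Zfp647, Zfp775 and Zfp839 had the largest exon rises from both kinds of stem cell. Zfp647 exons were at 7.91% and 3.68% in ESC and 8.73% and 4.72% in pESC, and at 78.1% and 79% in ESC-PGCLC and 73.9% and 70.3% in pESC-PGCLC. They rose by 72.7 points (5.70 ± 0.39 log2 odds, SE; limma adjusted p = 0.00014) and 65.4 points (adjusted p = 0.000328). Its promoter stayed between 1.16% and 7.63% throughout. Zfp775 exons rose from 5.49% and 3.69% in ESC by 51.7 points and from 5.45% and 7.75% in pESC by 42.4. Zfp839 exons went from 3.84% and 3.50% to 53.6% and 56.6% and from 3.23% and 4.43% to 45.1% and 47.1%. These 3 were picked as the largest called rises, so the wide gap between their stem cell and PGCLC libraries follows from that choice.

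Zfp27, Zfp827 and Zfp345 had the largest promoter rises, again from both kinds of stem cell. The Zfp27 promoter, with 1 CG in its printed 250 bases, was at 9.89% and 7.02% in ESC and 50.7% and 52.3% in ESC-PGCLC, and at 9.20% and 9.10% in pESC and 47.4% and 51% in pESC-PGCLC. It rose by 43 points (3.39 ± 0.23 log2 odds, SE; limma adjusted p = 0.000136) and 40.1 points (adjusted p = 0.000269). The Zfp345 promoter was at 0.725% and 3.27% in ESC, 29.4% and 32% in ESC-PGCLC, 0.709% and 1.22% in pESC and 27.4% and 20.7% in pESC-PGCLC. Its exons moved with it, from 2.90% and 4.51% in ESC to 44.4% and 52.2% in ESC-PGCLC. The Zfp827 promoter rose by 35.9 and 34.3 points, from ESC libraries at 37.3% and 16.3% and pESC libraries at 16.6% and 27.1%. These rises were called in fewer repeats than the others, being lost without ESC library 2 or either ESC-PGCLC library (adjusted p = 0.0698 to 0.120) and, from pESC, without any pESC or PGCLC library (0.0567 to 0.210).

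A few members lost methylation on induction. The Zfp560 promoter was at 45.6% and 15.9% in ESC and 5.17% and 6.31% in ESC-PGCLC, a fall of 25 points (limma adjusted p = 0.0487), and its exons fell by 14. Zfp934 exons fell by 21.2 points from ESC libraries at 43.1% and 21.4%. At Zfp560 and Zfp934 the ESC libraries were themselves over 20 points apart at the promoter, so these are values with wide error. Leaving out 1 library ended the Zfp560 promoter call in 7 of 8 repeats (all but ESC library 2), its exon call in 5 (ESC library 1 and all PGCLC libraries) and the Zfp934 call in 6 (all but the ESC libraries). From pESC the exons of Zfp26 fell by 25.4 points, from 29.3% and 26.8% to 1.86% and 3.47%, and those of Zfp263 by 12.4, from 14.4% and 14.7% to 2.29% and 2.0%. The Zfp26 call was lost without any of the pESC or pESC-PGCLC libraries (adjusted p = 0.0519 to 0.0994). Both exons were also low in PGCs, at 2.06% and 2.87% and 2.98% and 3.47% in E9.5 PGC.

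**Figure D4:**
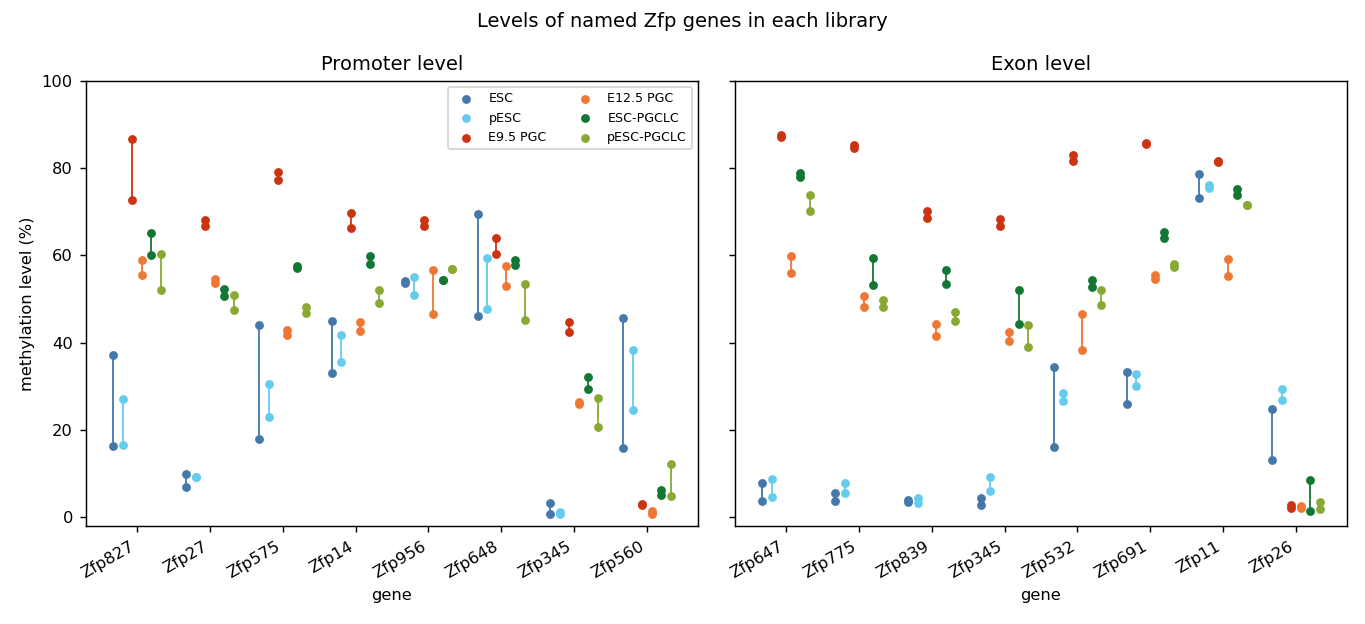
Methylation level in percent of 8 promoters and 8 exons in each library of the 6 groups, with a dot per library and a line joining the 2 libraries of a group. Zfp647 and Zfp775 exons are below 9% in both stem cell groups and at 48.2% or more in every PGC and PGCLC library, Zfp11 exons stay above 55% everywhere, and Zfp26 exons and the Zfp560 promoter are higher in stem cells.

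The distance between exons and promoter widened in 33 members (16.4%) from ESC to ESC-PGCLC and narrowed in 3, beside widening in 9.47% of the autosomal protein-coding genes and 8.8% of all genes. From pESC to pESC-PGCLC it widened in 22 (10.9%) and narrowed in 4, beside 6.41% and 6.11%. Without ESC-PGCLC library 1 the 36 members called from ESC were 21, and with the ESC and ESC-PGCLC libraries alone they were 15.

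Cells with and without a paternal genome were compared at 2 stages and no Zfp gene was called at either. Between pESC and ESC no promoter and no exon of the 201 was called by limma, at a background of 0.0% for both classes, and 3 promoters and 2 exons had an unadjusted p under 0.05. The median difference over members was 0.0204 points for promoters and 0.145 for exons. Between pESC-PGCLC and ESC-PGCLC none was called either, at a background of 0.0958% of promoters and 0.0987% of exons, and 17 promoters and 41 exons had an unadjusted p under 0.05. The median difference was -0.0739 points for promoters and -0.706 for exons. The change on induction did not differ in a called way between the 2 origins at any member (0.0372% of promoters and 0.0415% of exons tested), with 8 promoters and 7 exons at an unadjusted p under 0.05. These counts do not show that the groups were alike.

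Zfp236 and Zfp286 came nearest to a call between the PGCLC groups and are named after their values were seen. Zfp236 exons passed on the adjusted p (limma, 0.046) but differed by 7.0 points, under the minimum. Zfp286 exons were at 57.8% and 63.5% in ESC-PGCLC and 42.4% and 43.3% in pESC-PGCLC, lower by 17.8 points in the latter (-1.02 ± 0.16 log2 odds, SE; limma adjusted p = 0.102). Zfp286 passed with an offset of 0.1 in the log odds (adjusted p = 0.0438) and on untransformed levels (adjusted p = 0.0300), and over all other settings its adjusted p was 0.0938 to 0.325. Its promoter was at 42.6% and 40.6% and 34.8% and 40.4%, and did not pass (adjusted p = 0.444).

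The 63 exons at 50% or more in E9.5 PGC were followed through the other groups as a description, since their E9.5 level chose them. At E12.5 they held a median of 63.3% of their E9.5 level (quartiles 60.8% and 66.6%, range 48.8% to 75.1%), and the 3208 such exons of the 11560 genes held 62.3%. In ESC the median share was 48.1% but the range was far wider, from 4.4% to 93.1% (quartiles 31.0% and 62.2%), beside a median of 57.6% in the 3208. In pESC it was 49.8%, in ESC-PGCLC 75.3% and in pESC-PGCLC 68.7%. The exons thus held a similar share in E12.5 PGC, whereas in stem cells some were nearly unmethylated and others nearly as methylated as in E9.5 PGC. The 3208 exons also ranged widely in ESC, from 1.19% to 115% (quartiles 41.3% and 69.3%). Their quartiles in E12.5 PGC were 58.8% and 65.8%, so this contrast is not particular to the family.

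By this share, and so named after their values were seen, the lowest in ESC were Zfp777 (4.4% of its E9.5 level), Zfp839 (5.28%), Zfp775 (5.40%), Zfp345 (5.49%) and Zfp647 (6.63%), and the highest was Zfp11 (93.1%). Zfp11 exons were at 78.7% and 73.2% in ESC, 76.3% and 75.5% in pESC, 81.5% and 81.7% in E9.5 PGC and 55.4% and 59.2% in E12.5 PGC. Of the 63, 62 were higher in ESC-PGCLC than in E12.5 PGC (98.4%, beside 96.7% of the 3208 such exons of the autosomal protein-coding genes). In ESC-PGCLC 57 were higher than in pESC-PGCLC (90.5%, beside 93.8%), and in pESC-PGCLC 55 were higher than in E12.5 PGC (87.3%, beside 90.4%). In E12.5 PGC 50 were higher than in ESC (79.4%, beside 59.6%). In E12.5 PGC 44 were higher than in pESC (69.8%, beside 57.5%), a smaller excess over the 3208. Only these orders over stem cells were far from those of the 3208, so the other orders are not particular to the family. Whether the orders over stem cells are particular to it was not tested. ESC library 1 was above library 2 at 53 of the 63, with medians of 34.0% and 25.9%, and no other group's libraries had medians so far apart.

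The members of known role were read by group, against the background percentages given above for each comparison. An exon below 10% in E9.5 PGC could not be called lower, so nothing particular to a role is read from these counts. Of 7 KRAB repressors of retroelements or imprinted regions, 1 lost exon methylation from E9.5 to E12.5, beside 47.6% of all exons tested. The member that lost it was Zfp445, which protects imprints in the embryo, at 50.5% and 54.3% and then 40.0% and 38.7% (limma adjusted p = 0.00147). At E12.5 its exons held 75.1% of their E9.5 level, the highest share of the 63 exons at 50% or more in E9.5 PGC. With libraries centred on their medians the difference was 2.96 points and was not called. The exons of Zfp809, which silences retroviruses, and of Zfp568, which represses a placental Igf2 promoter, were low in every library, between 1.50% and 4.53% and between 0.802% and 8.84%. Zfp708, Zfp932, Zfp961 and Zfp819 were not called, and the median exon difference of the 7 was -1.80 points. Zfp961 exons rose on induction by 10.4 points from ESC and 10.9 from pESC (adjusted p = 0.0496 and 0.0469). Both calls were lost when any of the 4 PGCLC libraries, ESC library 2 (from ESC) or pESC library 2 (from pESC) was left out, at adjusted p = 0.0799 to 0.230.

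Of 6 members with roles in pluripotency or the early embryo, 3 lost exon methylation from E9.5 to E12.5, beside 47.6% of all exons tested. The median difference of the 6 was -15.8 points. Zfp217 exons went from 71.7% and 72.5% to 49.2% and 46.1%, Zfp462 from 79.7% and 78.3% to 49.8% and 49.7% and Zfp219 from 55.2% and 59% to 33.7% and 36.7%. The exons of Zfp296 missed the 10-point minimum, at a difference of -9.62 points (limma adjusted p = 0.000521). Zfp281 and Zfp143, which have roles in pluripotent cells, had exons between 1.01% and 2.34% and between 0.668% and 4.44%. Of all exons tested, 16.9% rose on induction from ESC and 10.6% from pESC. On induction from ESC the exons of Zfp217, Zfp219 and Zfp296 rose, by 28.6, 23.6 and 10.4 points, and from pESC those of Zfp219 alone. Of these, Zfp217 was lost without either ESC-PGCLC library, Zfp296 without ESC library 2, and Zfp219 from pESC without any pESC or pESC-PGCLC library. Neither of 2 members with germ cell roles, Zfp318 and Zfp148, was called in any comparison, and their exons lay between 1.12% and 1.95% and between 1.46% and 2.14%.

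Of 10 members with roles in development or RNA control, 7 lost exon methylation from E9.5 to E12.5, beside 47.6% of all exons tested. The median difference of the 10 was -21.7 points. The 7 were Zfp423 and Zfp521, regulators of neural and other progenitors, Zfp536, Zfp609, Zfp516, Zfp335, which is needed for neurogenesis, and Zfp407. Zfp521 exons were at 15.1% and 8.99% in ESC, 79.5% and 80.5% in E9.5 PGC, 47.7% and 48% in E12.5 PGC, 59.7% and 59.4% in ESC-PGCLC and 50.6% and 52.5% in pESC-PGCLC. Zfp609 exons went from 81.4% and 80.7% to 50.1% and 51.2%. The exons of Zfp503, Zfp703 and Zfp36 did not pass and were low in all libraries, between 1.72% and 2.33%, between 2.53% and 3.81% and between 1.47% and 2.36%. On induction 16.9% of all exons tested rose from ESC and 10.6% from pESC. The exons of Zfp423, Zfp521, Zfp609 and Zfp516 rose from ESC and from pESC, 4 of the 10 in each case. Leaving out 1 library ended those of Zfp516 from both origins (in 2 and 6 of 8 repeats, the PGCLC libraries of the same origin among them), Zfp609 from both (ESC-PGCLC library 2, pESC-PGCLC library 2) and Zfp423 from pESC (any pESC or pESC-PGCLC library). Over all 25 members of known role, 1 promoter was called from E9.5 to E12.5, that of Zfp335, which went from 34.8% and 36.3% to 17.4% and 22.1%.

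Among the proteins through which KRAB members act, 12 were listed and 10 had levels in the PGC comparison. From E9.5 to E12.5, 3 of the 10 exons and 1 of the 10 promoters fell, against 47.6% of all exons and 32.2% of all promoters, and nothing particular to these proteins is read from the counts. The exons of the chaperone Daxx, the deacetylase Hdac1 and Setdb1 fell, by 52.3, 27.5 and 16.6 points, and the promoter of Morc3 fell by 16.9. Daxx exons were at 78.9% ± 2.00 (SD, n = 2) in E9.5 PGC, 26.6% ± 0.313 in E12.5 PGC and 2.40% ± 0.349 in ESC. Morc3 showed the reverse layout, with a promoter at 59.4% ± 0.781 in E9.5 PGC and exons at 2.84% ± 1.71. On induction 1 of 10 promoters rose from each origin (12.1% and 8.55% of all promoters), that of Morc3, by 31.6 points from ESC and 25.7 from pESC. Of 11 exons, 2 rose from ESC and 1 from pESC (16.9% and 10.6% of all exons), with Daxx up by 39.3 and 40.3 and Hdac1 by 21.4 from ESC. Trim28, the shared corepressor, was between 1.18% and 1.44% in the mean of every group, with the same value listed for promoter and exons.

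Exons were less methylated at the median in members with a KRAB domain than in those without. In E9.5 PGC the median exon level was 6.05% in the 98 with KRAB, of which 22 were at 50% or more, and 27.6% in the 103 without, of which 41 were. From E9.5 to E12.5, 30 of the 98 and 53 of the 103 exons fell, with median differences of -1.44 and -12.9 points, and 12 and 8 promoters fell. The background was 47.6% of all exons and 32.2% of all promoters, so that the exon count without KRAB lay near it, and the exon count with KRAB and both promoter counts lay below it. A level below 10% in E9.5 PGC could not be called lower, and 59 of the 98 and 40 of the 103 exons were below it. These counts therefore do not compare members with and without KRAB at equal starting levels. From ESC to ESC-PGCLC 16 and 36 exons rose (16.9% of all exons tested), and from pESC to pESC-PGCLC 12 and 26 (10.6%), with the KRAB counts near the background and the others above it. The 2 exons that fell in each of these inductions were all of KRAB members. They were 0.995% of the members, near the 1.19% and 1.22% of the autosomal protein-coding genes. The calls at Zfp560, Zfp934 and Zfp26 were also lost in repeats, as given above, so nothing particular to KRAB members is read from these falls. The exons of KRAB members held fewer CCGG sites more than 1 kb from any start of the gene, with a median of 3 against 7, and the part this has in the levels was not tested.

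The number of these sites moved with the exon level in the family as a whole. Spearman's rho between the number of exonic CCGG sites more than 1 kb from a start and the E9.5 PGC exon level was 0.573 across the 201 genes, and 0.412 across the 11560. Genes are not independent replicates, and these sites decide which cytosines RRBS can read. In the 67 members with 0 to 2 such sites the median exon level was 2.28% and 4 were at 50% or more. In the 64 with 3 to 6 sites it was 9.69% with 20 that high, and in the 70 with 7 or more it was 55.3% with 39. Within these ranges the medians were 2.28%, 15.6% and 41.6% in KRAB members (45, 35 and 18 genes) and 2.25%, 4.68% and 57.6% in the others (22, 29 and 52). The KRAB members were thus not lower throughout, and how far reading sites near the start sets an exon level was not tested.

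**Figure D5:**
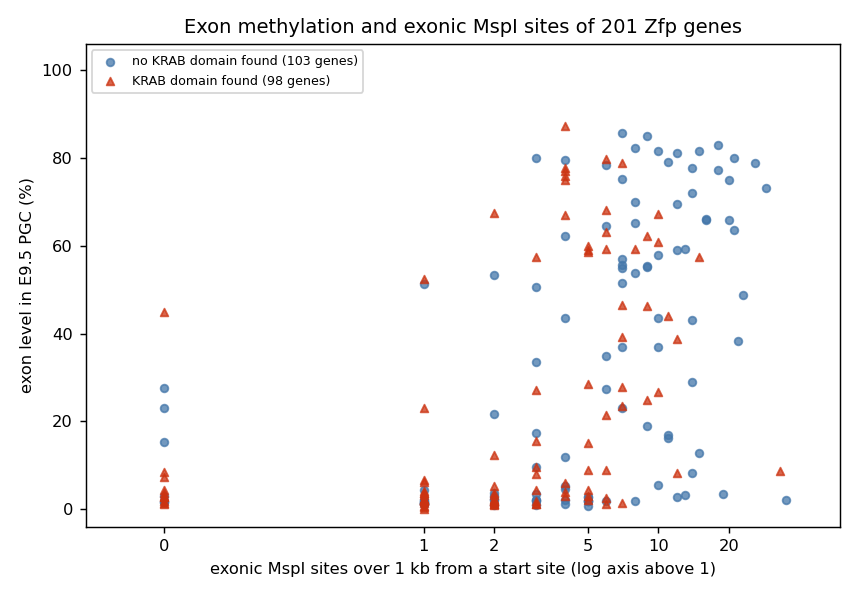
Mean exon methylation level in E9.5 PGC in percent (n = 2 libraries) against the number of exonic CCGG sites more than 1 kb from a start of the gene, on an axis that is linear near 0 and logarithmic beyond, for 98 members with a KRAB domain (triangles) and 103 without (circles). Members with 0 to 2 sites have a median of 2.28%, and those with 7 or more a median of 55.3%.

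Other features moved less with the levels. Across the 201 genes the rho of the exon level in E9.5 PGC was -0.0154 with exon length and 0.0961 with the number of fingers. The promoter level gave -0.226 with the observed to expected CG ratio of the 300-base window, against -0.337 in the 11560 genes, and 0.174 with the number of fingers. Promoter and exon level gave 0.314, against 0.451. By position, the median E9.5 PGC exon level was 31.1% in the 54 members of chromosome 7, 4.24% in the 21 of chromosome 17 and 9.34% in the 126 elsewhere. It was 8.39% in members with another within 200 kb and 16.3% in those without.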

How the data were processed

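RRBS was analysed in 12 libraries, grouped by their titles. According to the study and its processing notes, the authors aligned reads with Bismark 0.16.3 and Bowtie2 to mm10, kept unique best alignments, handled duplicates and corrected for non-conversion. The deposited values are 1 fraction per gene and class, methylated over all CG calls, which are printed here as percentages. The promoter window and coverage minimum were not stated in the sources used here. Depth is unknown, so precision rests on the 2 libraries of each group.

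Of 30073 gene identifiers, 30041 were found in GENCODE M21, which gave symbols and gene parts. limma 3.58.1 (R 4.3.3) was run on the levels after the transformation log2((level + 0.01)/(1 - level + 0.01)), and p-values were adjusted by Benjamini and Hochberg over every feature of every class in the fit. The 4 PGC and PGCLC groups shared a fit, as did the 4 stem cell and PGCLC groups, and pESC and ESC had their own. The distance between exons and promoter was fitted on the difference of the log odds within each library, over all 14414 genes and 12 libraries. The scripts were tested on simulated data. As the files hold levels only, the test planned for read counts was not used.

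Promoter bases came from RefSeq on GRCm38.p6, the assembly of mm10, with 147 of the 201 members matched within 1 kb of the GENCODE start. Protein features, planned from RefSeq, came from translated GENCODE M21 coding sequences. C2H2 fingers were matched by pattern and KRAB domains by a search with the first 80 residues of Zfp809 (pyhmmer 0.12.3, E-value 1e-05).

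The members, role lists and tests were chosen with earlier results of these data known. Named genes were those of the role lists, the 5 highest and 5 lowest at E12.5, the 3 called members with the largest rise and fall of each comparison, and the extremes of the distance. Zfp689, Zfp207, Zfp352, Zfp541 and Zfp608 of the lists had incomplete levels. Alternatives were the offset, no transformation, subtraction of the library median, the minimum difference, the features and libraries fitted, a replicate block and each library left out.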

Additional observations from a re-analysis of the deposited data

How the results depend on the processing

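Differences are percentage points of a mean level of unknown depth, and an exon level mixes the sites near the start with those in the gene body. With 2 libraries a group, a member that did not pass may still differ. Of 304 repeats of the 25 counts given in the report under other settings, 268 stayed within 1.5 times the count and kept its direction. Of 2710 repeats of the calls on the named members, 2355 kept the call, 338 lost it and 17 turned in direction.

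With a minimum of 20 points in place of 10, the calls in E12.5 PGC against E9.5 PGC were 6 promoters and 55 exons, in ESC-PGCLC against E9.5 PGC 1 and 15, in pESC-PGCLC against E9.5 PGC 3 and 35, and in pESC-PGCLC against pESC 4 and 23. In pESC the exons then exceeded the promoter in 41 members, and from pESC to pESC-PGCLC the distance changed in 14. With all 12 libraries fitted together 5 promoters differed between ESC-PGCLC and E9.5 PGC. With an offset of 0.1 and with untransformed levels, 1 exon differed between the PGCLC groups in each case, and the distance changed in 64 and 70 members from E9.5 to E12.5 and in 40 and 41 from pESC. Using the libraries of ESC and ESC-PGCLC alone, it changed in 15.

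Subtracting the library median from every level turned the balance of calls, since a feature near 0% in both groups then moves by the difference of the medians. Promoters and exons called were 140 and 98 in E12.5 PGC against E9.5 PGC, 70 and 52 in ESC-PGCLC and 114 and 91 in pESC-PGCLC against E9.5 PGC, 129 and 87 from ESC and 58 and 58 from pESC. Called falls that became rises from E9.5 to E12.5 were the promoters of Zfp27 (2.72 points), Zfp335 (0.191), Zfp382 (4.68), Zfp638 (0.721), Zfp9 (4.03) and Zfp956 (0.133) and the exons of Zfp335 (3.02) and Zfp445 (2.96). Between pESC-PGCLC and E9.5 PGC they were the promoters of Zfp382 (1.46) and Zfp956 (1.53) and the exons of Zfp11 (2.03), Zfp296 (1.74), Zfp335 (1.25), Zfp407 (1.58) and Zfp956 (0.194). The exon rises of Zfp296 and Zfp961 from ESC became -2.36 and -2.38.

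Leaving out each library in turn gave 81 to 88 exons and 17 to 21 promoters in E12.5 PGC against E9.5 PGC, 62 to 68 and 7 to 12 in ESC-PGCLC and 75 to 81 and 14 to 18 in pESC-PGCLC against E9.5 PGC, 36 to 69 and 9 to 16 from ESC, and 23 to 52 and 5 to 12 from pESC. The distance changed in 3 to 8 members from E9.5 to E12.5, 21 to 40 from ESC and 19 to 23 from pESC. Comparisons with no member called stayed at 0. The lone library left in a group is assumed to vary like the others.

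In a fit with a replicate block, the exon counts were 84, 69, 82, 55 and 43 and the promoter counts 20, 13, 18, 13 and 9 in the same order, and the distances 34, 37 and 31. No count moved by over 1.5 times. Same-numbered libraries of ESC and pESC deviated together (correlation 0.432 over all common features), and those of the other pairs of groups gave -0.0573 to 0.139. The labels name no shared batch and a group has 2 libraries, so the numbers were not taken as pairs. The distance between exons and promoter was itself paired, since it was taken within each library. The replicate block was not applied to the distance within a group.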

Other observations

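The other parts of the Zfp genes were measured in fewer members. The 5′ untranslated regions of 176 members had median levels of 1.90% in ESC, 2.17% in E9.5 PGC and 2.14% in E12.5 PGC, and so lay with the promoters. Introns of 173 members were at 7.16%, 16.5% and 10.3%, beside 17.8%, 37.1% and 21.5% over the 10457 of the 11560 genes with intron levels. The 3′ untranslated regions of 47 members were the most methylated part, at 40.2%, 73.2% and 47.5%. In 2964 of the 11560 genes these regions were at 40.4%, 70.8% and 44.3%, so this is not particular to the family.

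At a few exons the libraries of 1 group stood far apart. Zfp27 exons were at 57.1% and 24.2% in ESC, 42.8% and 34.8% in pESC, 86.2% and 6.67% in E9.5 PGC, 8.33% and 74.6% in E12.5 PGC, 76.3% and 0% in ESC-PGCLC and 66.9% and 76.3% in pESC-PGCLC. Its promoter libraries lay close together in each group, as given above. Zfp790 exons were at 49.6% and 7.71% in E9.5 PGC and 38.7% and 13.8% in ESC-PGCLC, and Zfp513 exons at 37.3% and 8.62% in E9.5 PGC. These genes were chosen after their values were seen, and the number of reads behind them is unknown.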
